A study of Mus musculus with 13 samples.

Results

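Fatty acid oxidation and ketogenesis were examined through 31 genes, taken by name from a given list and split into activation and import, mitochondrial, peroxisomal, omega-oxidation and ketone steps. All 31 were present among the 23361 gene symbols of each per-library table, and all 31 were among the 15132 genes that passed the filter on low counts. RNA came from liver tumours of mice in which both Hippo kinases are missing: Mst1 from the germ line (Mst1-/-) and Mst2 (Mst2Flox/Flox) after injection of an adenovirus carrying Cre, on a mixed (C57BL/6; 129Sv) strain background. Tumours were followed by ultrasound, and mice were then randomly given intravenous lipid nanoparticles for 9 days. The 5 siYap libraries came from mice given siYap-LNPs, which carry a short interfering RNA against Yap. The 8 siLuc libraries came from mice given siLuciferase-LNPs, whose RNA targets a luciferase. Every animal in both groups carried the same tumour genotype, so neither group is normal liver, and age and sex are not labelled. No label ties a library to an animal, so the p-values measure only the spread between these libraries, which may be technical in part. The levels are of whole tumour RNA, in which fewer cells of a type and less RNA per cell cannot be told apart.

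Long-chain fatty acids are activated to acyl-CoA, passed into mitochondria as carnitine esters, and shortened there by a repeated sequence of dehydrogenation, hydration, dehydrogenation and thiolysis. Peroxisomes run a related sequence on very long and branched chains, microsomal Cyp4a enzymes oxidise the far end of the chain, and hepatocytes turn much of the resulting acetyl-CoA into ketone bodies. In mouse liver many genes of these routes are targets of the nuclear receptor Ppara, which binds DNA as a pair with Rxra.

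Of the 31 genes, 12 were higher in siYap tumours and 0 were lower at an adjusted p under 0.05 (edgeR quasi-likelihood test, Benjamini-Hochberg over 15132 genes), and 19 did not pass. Over all genes tested, 16% were higher and 14.8% were lower by the same rule, and among the 5350 genes averaging 10 FPKM or more, where most of these genes lie, 14.4% were higher and 18.9% lower, with a median log2 fold change of -0.10. The median log2 fold change of siYap over siLuc was 0.53 for the 31 genes, with 28 above and 3 below zero, against -0.0026 for all genes tested. By step, 1 of 3 activation and import genes, 6 of 18 mitochondrial genes, 3 of 7 peroxisomal genes, 2 of 2 omega-oxidation genes and 0 of 1 ketone genes were higher. The median log2 fold change was 0.37 for the mitochondrial genes and 0.79 for the peroxisomal genes. The groups were rarely separated: the 5 siYap libraries all lay above the 8 siLuc libraries in FPKM for 1 gene, Acadl, and all below for 0, while 5.57% of all genes tested were separated upwards and 5.66% downwards. In FPKM, 4 of the 5 siYap libraries lay above every siLuc library in 9 of the 12 called genes. In 8 of those 9 the remaining library was siYap replicate 1. In log2 CPM, the TMM-scaled counts, replicate 1 also lay above every siLuc library for Etfa and Acaa1a, but not for the others of the 8. The 12 genes were called from these same libraries, and the share over all called genes was not computed.

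**Figure D1:**
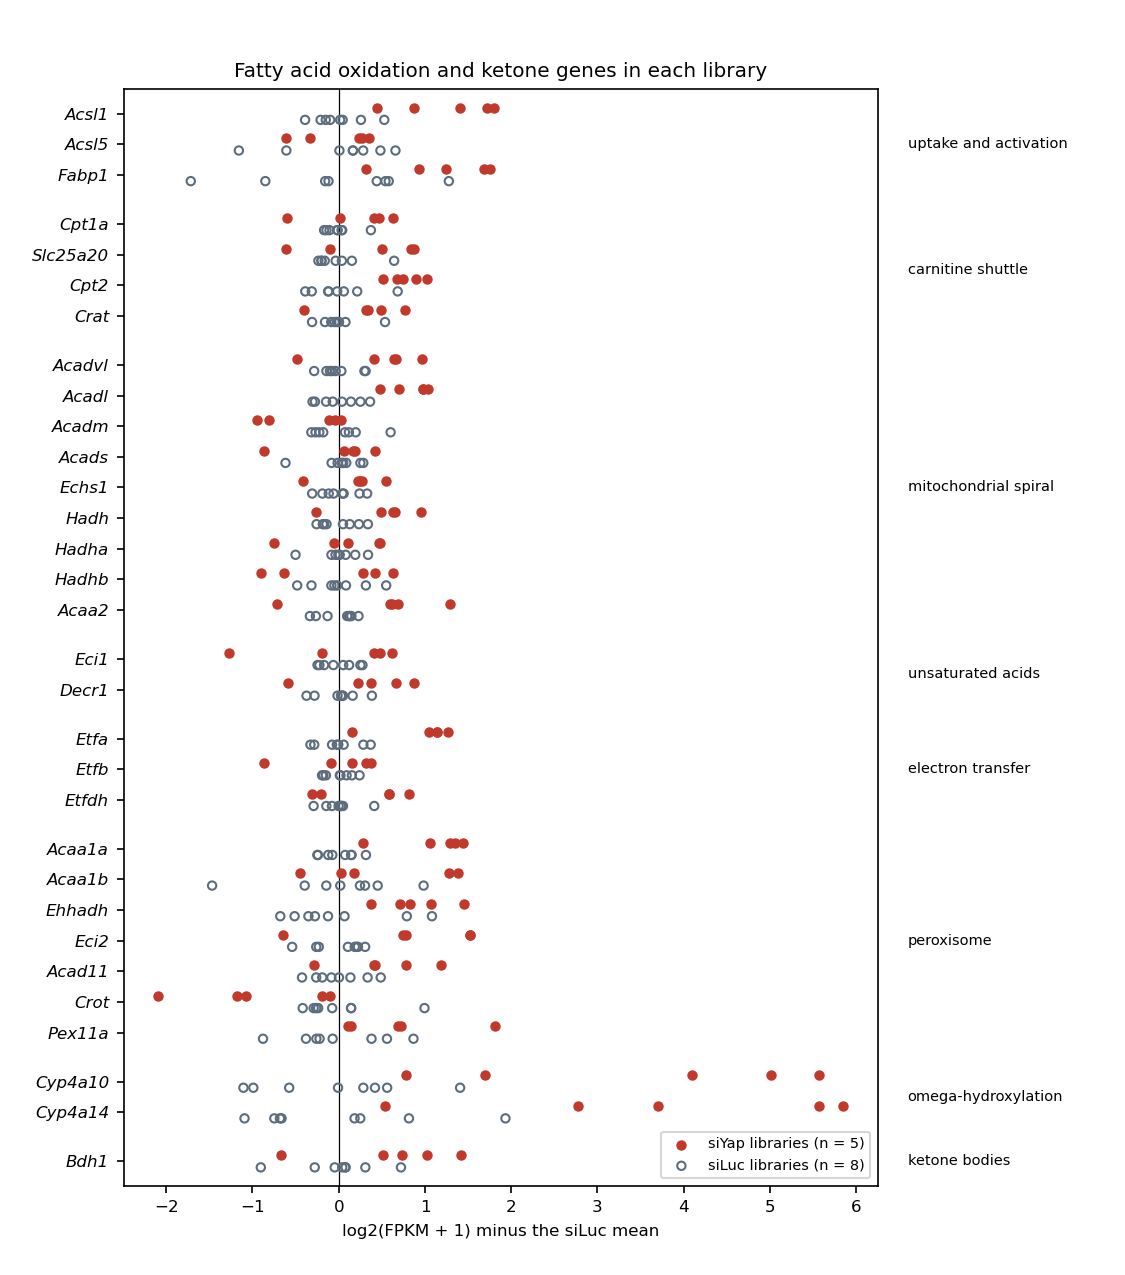
Level of each of the 31 genes in each library as log2(FPKM + 1) minus the siLuc mean of that gene, with the 5 siYap libraries (filled) drawn above the 8 siLuc libraries (open). Acadl is the gene whose groups do not overlap, and Cyp4a10 and Cyp4a14 span the widest range among siYap libraries.

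FPKM values are the authors' fragment counts scaled to transcript length and library depth, so levels can be compared between genes. In siLuc tumours the highest mean levels were those of Crot, Acaa2, Fabp1 and Acadm, between 289.5 and 370.4 FPKM. The lowest were those of Cyp4a14 and Cyp4a10, at 2.29 and 2.66 FPKM. In siYap tumours Fabp1 averaged 597 ± 219.9 FPKM and stood first, Acaa2 averaged 557 ± 235 FPKM, and Crat was lowest at 10.6 ± 3.09 FPKM. Means are given with the SD over 5 siYap and 8 siLuc libraries throughout, and fold changes are log2 values of siYap over siLuc with the standard error of the fit.

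Sequences shown here are promoters of 4 genes, chosen because they hold a match to the DNA element that Ppara and Rxra bind together, a pair of AGGTCA hexamers with 1 base between them. The RefSeq promoter table (GRCm38.p6, 250 bases before to 50 after each start) held 28 promoters of 26 of the 31 genes, without Crat, Acaa2, Decr1, Cyp4a10 and Cyp4a14. On either strand and with at most 2 mismatches, 4 of the 28 held a match (14.3%), against 1268 of 32851 promoters in the whole table (3.86%). Only Etfa of the 4 was among the 12 called genes, of which 9 had a promoter in the table. Of the 10 promoters of those 9 genes, 1 held a match (10%). Each promoter is written 5′ to 3′ on its gene's strand, with the matching 13 bases in capitals.
The Fabp1 match has 1 mismatch and begins 67 bases before the start (chr6:71199629-71199928, plus strand).
Fabp1: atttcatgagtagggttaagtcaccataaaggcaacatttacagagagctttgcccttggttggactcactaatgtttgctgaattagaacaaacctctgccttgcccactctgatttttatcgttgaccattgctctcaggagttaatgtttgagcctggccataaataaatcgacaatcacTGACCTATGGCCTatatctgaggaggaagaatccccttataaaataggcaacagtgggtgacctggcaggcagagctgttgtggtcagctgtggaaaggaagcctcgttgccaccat
The Etfa match has 2 mismatches and begins 77 bases before the start (chr9:55512194-55512493, minus strand).
Etfa: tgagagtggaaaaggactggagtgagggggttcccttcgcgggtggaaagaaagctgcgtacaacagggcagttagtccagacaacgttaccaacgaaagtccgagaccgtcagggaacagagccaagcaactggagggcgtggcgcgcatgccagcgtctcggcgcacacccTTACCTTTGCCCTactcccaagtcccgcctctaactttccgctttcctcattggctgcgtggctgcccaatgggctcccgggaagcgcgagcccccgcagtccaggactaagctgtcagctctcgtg
The Echs1 match has 2 mismatches and begins 83 bases before the start (chr7:140116372-140116671, minus strand).
Echs1: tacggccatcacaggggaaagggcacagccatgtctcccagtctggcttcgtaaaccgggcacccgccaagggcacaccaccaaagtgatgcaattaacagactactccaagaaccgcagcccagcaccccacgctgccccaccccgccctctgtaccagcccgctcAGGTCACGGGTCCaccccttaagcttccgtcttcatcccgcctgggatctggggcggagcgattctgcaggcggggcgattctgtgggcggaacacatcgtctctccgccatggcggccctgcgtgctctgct
The Slc25a20 match has 2 mismatches and lies after the start, within the first 50 transcribed bases (chr9:108661886-108662185, plus strand).
Slc25a20: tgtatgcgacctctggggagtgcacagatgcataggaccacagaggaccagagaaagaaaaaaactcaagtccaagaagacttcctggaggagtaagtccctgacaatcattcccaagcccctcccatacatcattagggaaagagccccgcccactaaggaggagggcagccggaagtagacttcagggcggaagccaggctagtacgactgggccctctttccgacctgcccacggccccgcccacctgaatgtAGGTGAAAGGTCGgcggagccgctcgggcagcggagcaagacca
At most 1 mismatch was met by 0.554% of promoters in the table, Fabp1 among them. A match is a run of letters and not a measured binding site.

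Activation was led by Acsl1, the main long-chain acyl-CoA synthetase of liver, on chromosome 8 (mm10, 46471037 to 46536051). Its FPKM was 88.8, 229, 120.4, 174 and 216 in siYap replicates 1 to 5, against 49.4, 63.2 and 94.2 as the lowest, median and highest of the siLuc libraries. Of the siYap libraries, replicate 1 alone lay within the siLuc range. Acsl1 averaged 166 ± 60.3 FPKM in siYap tumours and 66.2 ± 14.1 FPKM in siLuc tumours, a log2 fold change of 1.33 ± 0.22 (edgeR adjusted p = 0.000507). Acsl5, a second long-chain synthetase, averaged 163 ± 44.8 FPKM in siYap tumours and 171 ± 59.3 FPKM in siLuc tumours (log2 fold change -0.06 ± 0.27, adjusted p = 0.882). Ratios of FPKM within a library are given for 6 pairs of genes picked after their values were seen, as descriptions with no p-value. The FPKM of Acsl1 was 0.994 ± 0.133 of that of Acsl5 in siYap libraries and 0.462 ± 0.260 of it in siLuc libraries. Fabp1, the liver fatty acid binding protein, had 308, 583, 470.2, 830.4 and 795 FPKM in siYap replicates 1 to 5, against 74.4, 281 and 599 as the lowest, median and highest in siLuc libraries. Each siYap value exceeded the siLuc median, but 3 of the 5 fell inside the siLuc range, and the log2 fold change of 1.02 ± 0.40 did not pass (adjusted p = 0.0688).

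The carnitine shuttle was represented by 4 genes, of which Cpt2 passed. Cpt2, the inner-membrane carnitine palmitoyltransferase that regenerates acyl-CoA (chromosome 4, 107903982 to 107923589), had 16.5, 18.7, 24.0, 19.7 and 21.9 FPKM in siYap replicates 1 to 5, against 8.42, 10.8 and 18.8 as the lowest, median and highest in siLuc libraries. The single siLuc library at 18.8 FPKM, replicate 1, overlapped siYap replicates 1 and 2, and the next siLuc value was 13.3. Its log2 fold change was 0.82 ± 0.16 (adjusted p = 0.00172). Cpt1a, the outer-membrane enzyme whose step limits mitochondrial entry, had 46.0, 71.0, 97.7, 93.7 and 109 FPKM in siYap replicates 1 to 5, against 62.3, 69.4 and 91.2 as the siLuc lowest, median and highest. Replicates 3, 4 and 5 lay above the siLuc range and replicate 1 below it, and the log2 fold change of 0.25 ± 0.16 did not pass (adjusted p = 0.232). The ratio of Cpt2 to Cpt1a was 0.256 ± 0.0633 in siYap libraries and 0.169 ± 0.0576 in siLuc libraries. Slc25a20, the carnitine-acylcarnitine carrier, had 27.0, 59.7, 38.8, 77.2 and 75.3 FPKM in siYap replicates 1 to 5, against 35.3, 39.0 and 65.7 in siLuc libraries, with a log2 fold change of 0.39 ± 0.22 (adjusted p = 0.192). Crat, the acetyltransferase that moves short acyl groups to carnitine, averaged 10.6 ± 3.09 FPKM in siYap and 8.21 ± 1.74 FPKM in siLuc tumours, and its log2 fold change of 0.39 ± 0.15 also missed the threshold (adjusted p = 0.0654).

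Among the acyl-CoA dehydrogenases, which take the first step of each mitochondrial round and differ in the chain lengths they accept, the long-chain enzyme stood apart. Acadl (chromosome 1, 66830839 to 66863309) had 74.6, 86.8, 110.3, 106 and 106 FPKM in siYap replicates 1 to 5, against 42.9, 52.6 and 68.7 as the lowest, median and highest in siLuc libraries. Every siYap library lay above every siLuc library. The log2 fold change was 0.84 ± 0.14 (adjusted p = 0.000614). Acadvl, the very-long-chain enzyme, had 84.5, 185, 157, 232 and 188 FPKM in siYap replicates 1 to 5, against 96.9, 114 and 147 in siLuc libraries. In FPKM, replicates 2 to 5 lay above the siLuc range and replicate 1 below it. In log2 CPM, the TMM-scaled counts, replicate 1 lay within it, at -0.25 from the siLuc mean against a siLuc minimum of -0.34. Acadvl passed narrowly, at 0.50 ± 0.18 (adjusted p = 0.0418). Exons of Dvl2 cover 45.0% of the Acadvl exon bases. Dvl2 itself was listed at 1.59 FPKM in siYap and 1.33 FPKM in siLuc tumours, values that rest on the same assignment of shared reads. The part of Dvl2 reads in the Acadvl level was not tested. Acadm, the medium-chain enzyme, was among the 3 genes with a negative log2 fold change (-0.36 ± 0.21, adjusted p = 0.206), with a mean of 227 ± 66.9 FPKM in siYap and 289.5 ± 67.8 FPKM in siLuc tumours. Acads, the short-chain enzyme, averaged 29.6 ± 8.68 FPKM in siYap and 28.9 ± 5.12 FPKM in siLuc tumours (0.04 ± 0.17, adjusted p = 0.881). Within libraries, Acadl was 0.461 ± 0.172 of Acadm in siYap tumours, from 0.302 to 0.750, and 0.190 ± 0.0335 of it in siLuc tumours, from 0.140 to 0.243. This ratio sets the gene with separated groups over one with a negative log2 fold change, so it adds nothing to their own values.

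Of the genes for the later steps of the mitochondrial round, Hadh and Acaa2 passed. Hadh, the hydroxyacyl-CoA dehydrogenase for shorter chains, had 58.6, 109.9, 112, 138 and 99.3 FPKM in siYap replicates 1 to 5, against 59.0, 68.6 and 89.6 as the siLuc lowest, median and highest, and was higher by 0.54 ± 0.16 (adjusted p = 0.0189). Acaa2, the mitochondrial thiolase that releases acetyl-CoA, had 219, 546, 554, 884 and 583 FPKM in siYap replicates 1 to 5, against 286, 389.7 and 424 in siLuc libraries. In both genes siYap replicates 2 to 5 exceeded every siLuc library in FPKM while replicate 1 fell below every one. In log2 CPM, replicate 1 lay within the siLuc range for Hadh, at -0.075 from the siLuc mean against a siLuc minimum of -0.26. Acaa2 passed at 0.61 ± 0.22 (adjusted p = 0.0459), the value nearest the threshold among the called genes. Echs1, the short-chain enoyl-CoA hydratase, averaged 185 ± 40.8 FPKM in siYap and 161 ± 24.3 FPKM in siLuc tumours (0.19 ± 0.16, adjusted p = 0.364). Hadha and Hadhb, the subunits of the trifunctional protein that handles long chains, start 273 bases apart on opposite strands of chromosome 5. Neither passed. Hadha averaged 104 ± 32.0 FPKM in siYap and 96.9 ± 15.6 FPKM in siLuc tumours (0.10 ± 0.18, adjusted p = 0.698). Hadhb averaged 112 ± 47.5 FPKM in siYap and 109 ± 25.6 FPKM in siLuc tumours (0.06 ± 0.24, adjusted p = 0.879). The ratio of Hadha to Hadhb was 0.98 ± 0.223 in siYap libraries and 0.912 ± 0.149 in siLuc libraries. The accessory enzymes for unsaturated chains did not pass either. Eci1, an enoyl-CoA isomerase, had a log2 fold change of 0.12 ± 0.22 (adjusted p = 0.699), and Decr1, the dienoyl-CoA reductase, one of 0.38 ± 0.20 (adjusted p = 0.156).

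**Figure D2:**
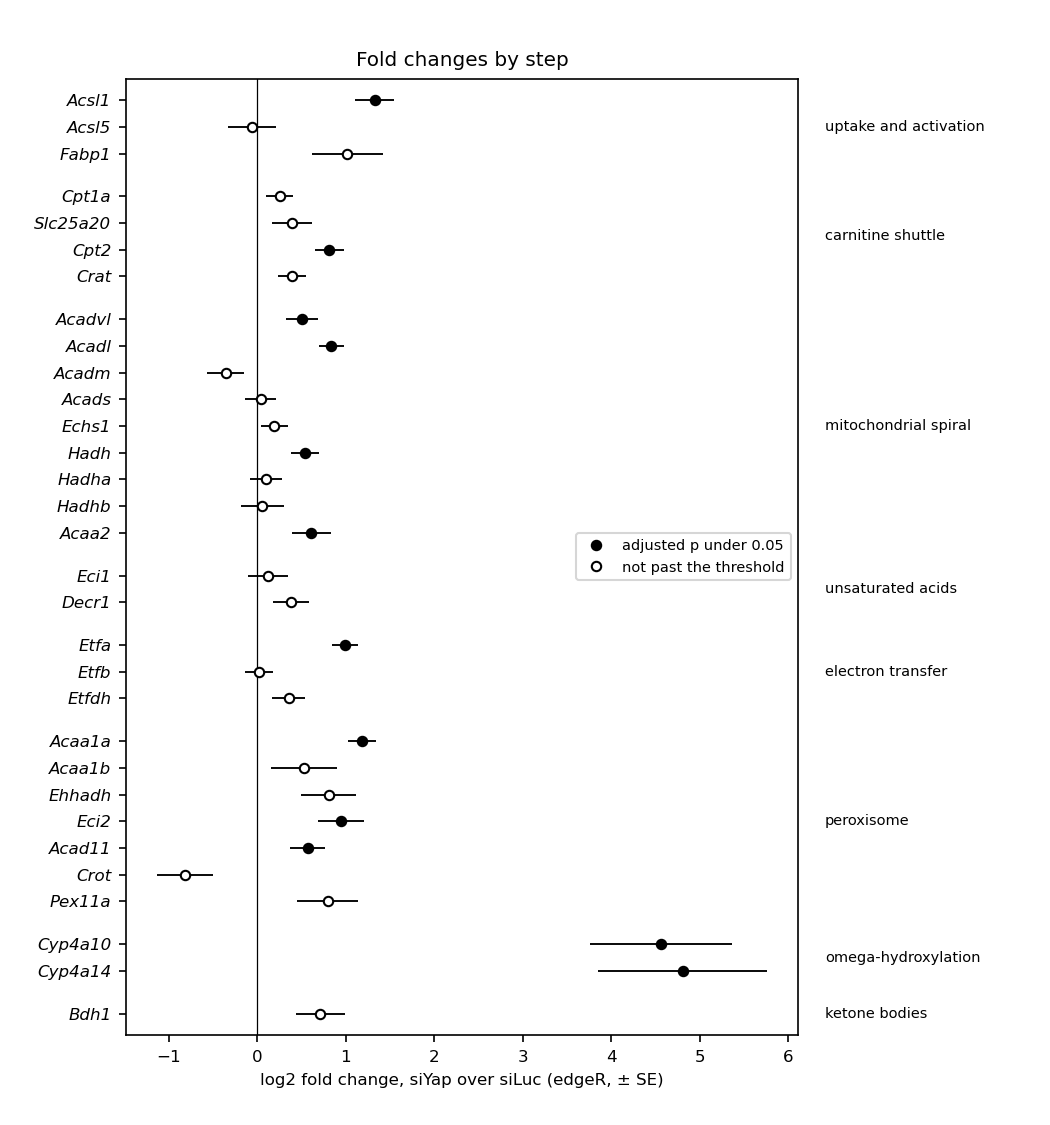
Log2 fold change of siYap over siLuc for each of the 31 genes by step, with the standard error of the edgeR fit and filled points for the 12 genes with an adjusted p under 0.05. Cyp4a10 and Cyp4a14 lie beyond 4 on the log2 scale, and Acsl5, Acadm and Crot lie below zero.

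Electrons from the acyl-CoA dehydrogenases pass to the electron transfer flavoprotein, a dimer of Etfa and Etfb, and on to Etfdh in the inner membrane. Etfa (chromosome 9, 55454436 to 55512243) had 113, 226, 247, 212 and 225 FPKM in siYap replicates 1 to 5, against 81.1, 101 and 132 as the lowest, median and highest in siLuc libraries. In FPKM, all siYap libraries but replicate 1 lay above the siLuc range. In log2 CPM replicate 1 lay above it too, at 0.44 from the siLuc mean against a siLuc maximum of 0.31. Etfa was higher by 0.99 ± 0.14 (adjusted p = 0.000193), with means of 204 ± 52.4 FPKM in siYap and 103 ± 17.8 FPKM in siLuc tumours. Its partner Etfb had 64.3, 148, 132, 153 and 111 FPKM in siYap replicates 1 to 5, against 103, 119 and 139.8 in siLuc libraries, and the log2 fold change was 0.02 ± 0.16 (adjusted p = 0.94). Exons of the transcript Gm45233 cover 69.1% of the Etfb exon bases, so reads of the pair may not have been separable. The Etfa to Etfb ratio was 1.71 ± 0.259 in siYap libraries, from 1.38 to 2.02, and 0.871 ± 0.121 in siLuc libraries, from 0.680 to 1.02. Etfa exceeded Etfb in every siYap library, replicate 1 included, though the overlap with Gm45233 limits the Etfb level. Etfdh averaged 123 ± 40.9 FPKM in siYap and 96.2 ± 14.4 FPKM in siLuc tumours and did not pass (0.36 ± 0.19, adjusted p = 0.159).

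**Figure D3:**
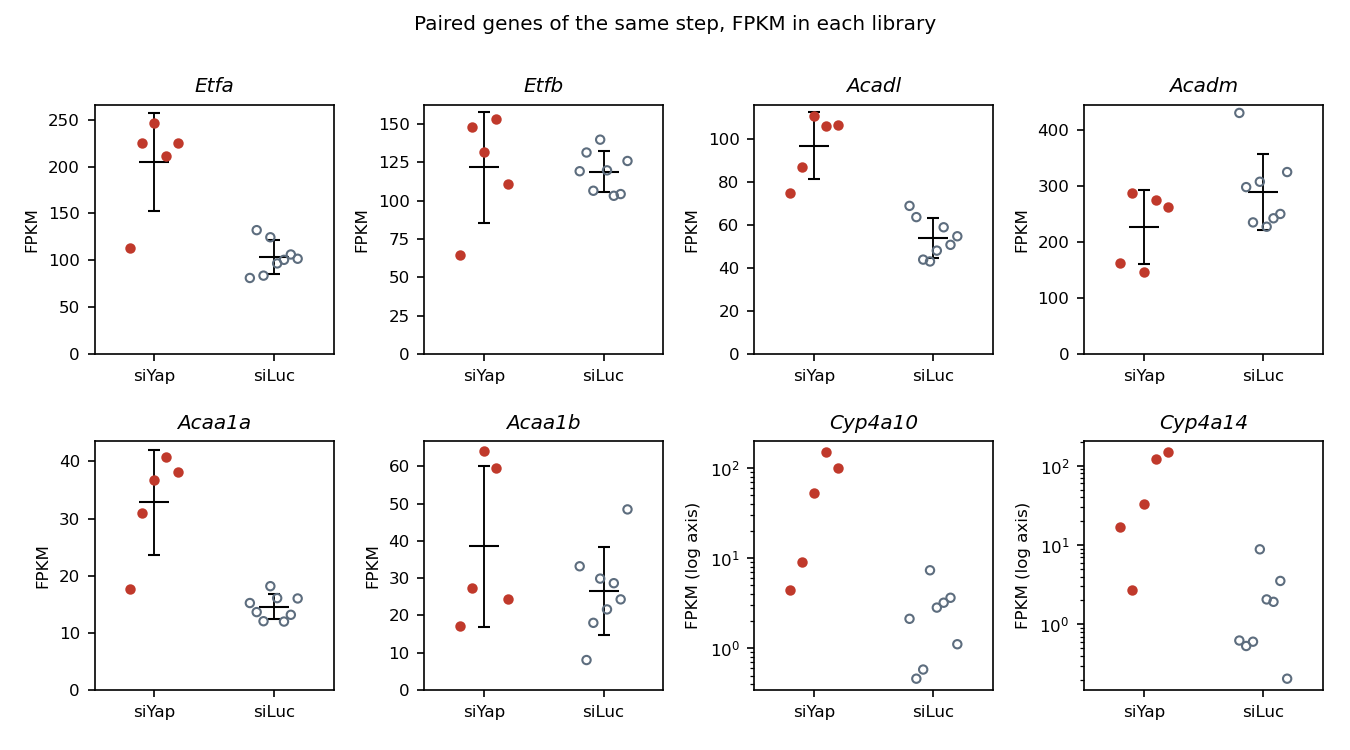
FPKM per library for Etfa with Etfb, Acadl with Acadm, Acaa1a with Acaa1b (points, with mean and SD) and Cyp4a10 with Cyp4a14 (log axis), siYap beside siLuc. Etfa, Acadl and Acaa1a passed the edgeR test and Etfb, Acadm and Acaa1b did not. In FPKM, of these 6 genes only Acadl has groups that do not overlap, since siYap replicate 1 lies within the siLuc range for Etfa and Acaa1a. In log2 CPM replicate 1 lies above every siLuc library for Etfa and Acaa1a.

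In the peroxisomal step, Acaa1a, Eci2 and Acad11 passed. Acaa1a, one of a pair of peroxisomal thiolases (chromosome 9, 119341028 to 119350296), had 17.7, 31.02, 36.7, 40.8 and 38.0 FPKM in siYap replicates 1 to 5, against 12.0, 14.4 and 18.2 as the lowest, median and highest in siLuc libraries. Again replicate 1 alone lay within the siLuc range in FPKM, just under its highest value. In log2 CPM replicate 1 lay above the range, at 0.54 from the siLuc mean against a siLuc maximum of 0.33. The log2 fold change was 1.19 ± 0.16, with the smallest adjusted p of the 31 genes (8.99e-05). Acaa1b, the other thiolase, had 17.3, 27.3, 64.0, 59.6 and 24.4 FPKM in siYap replicates 1 to 5, against 8.03, 26.5 and 48.4 in siLuc libraries, and did not pass (0.53 ± 0.37, adjusted p = 0.294). The thiolase genes are near-copies: 34.0% of 50-base and 21.6% of 100-base windows of the longest Acaa1a coding transcript (1762 bases) also occur in Acaa1b, so part of their split depends on how shared reads were assigned. The ratio of Acaa1a to Acaa1b was 0.995 ± 0.391 in siYap and 0.683 ± 0.431 in siLuc libraries.

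Eci2, a peroxisomal and mitochondrial enoyl-CoA isomerase, had 109.8, 290.1, 297, 497 and 496 FPKM in siYap replicates 1 to 5, against 118, 191 and 213 in siLuc libraries. Replicates 2 to 5 lay above the siLuc maximum, replicates 4 and 5 farthest, and replicate 1 below the siLuc minimum (0.95 ± 0.26, adjusted p = 0.0127). An antisense transcript, Gm16984, covers 10.8% of the Eci2 exon bases. Acad11, an acyl-CoA dehydrogenase that accepts very long and hydroxylated chains, averaged 101 ± 36.7 FPKM in siYap and 68.5 ± 15.2 FPKM in siLuc tumours (0.57 ± 0.20, adjusted p = 0.0423). Only siYap replicates 4 and 5, at 154 and 116 FPKM, exceeded the siLuc maximum of 94.5, and exons of Ackr4 cover 8.86% of its exon bases. Ehhadh, the bifunctional hydratase and dehydrogenase, had 39.7, 54.8, 64.9, 84.9 and 50.7 FPKM in siYap replicates 1 to 5, against 18.7, 26.5 and 65.6 in siLuc libraries, a log2 fold change of 0.81 ± 0.31 (adjusted p = 0.058). Pex11a, which promotes peroxisome division, averaged 18.2 ± 10.8 FPKM in siYap and 10.4 ± 4.55 FPKM in siLuc tumours (0.79 ± 0.34, adjusted p = 0.0915).

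Crot, the peroxisomal carnitine octanoyltransferase that exports shortened chains, had the most negative log2 fold change of the 31 genes. Its FPKM was 168, 328, 81.8, 155 and 308 in siYap replicates 1 to 5, against 264, 317 and 704 as the lowest, median and highest in siLuc libraries. Replicates 1, 3 and 4 lay below the siLuc range and replicates 2 and 5 inside it. At -0.82 ± 0.32 the difference did not pass the edgeR test (adjusted p = 0.0629), and it passed in 7 of 26 alternative settings, DESeq2 among them.

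The omega-oxidation genes showed the largest fold changes of the 31. Cyp4a10, a fatty acid omega-hydroxylase (chromosome 4, 115518287 to 115533649), had 4.40, 9.15, 52.7, 149 and 101 FPKM in siYap replicates 1 to 5, against 0.461, 2.48 and 7.33 as the lowest, median and highest in siLuc libraries. Cyp4a14 (chromosome 4, 115486200 to 115496158) had 16.6, 2.74, 32.5, 121 and 147 FPKM in siYap replicates 1 to 5, against 0.206, 1.27 and 8.82. In both genes siYap replicates 3, 4 and 5 lay far above every siLuc library, while replicate 1 for Cyp4a10 and replicate 2 for Cyp4a14 lay within the siLuc range. The log2 fold changes were 4.56 ± 0.80 for Cyp4a10 (adjusted p = 0.00103) and 4.81 ± 0.96 for Cyp4a14 (adjusted p = 0.00227). The spread among siYap libraries was as large as the mean, at 63.1 ± 61.6 FPKM for Cyp4a10 and 64.0 ± 65.5 FPKM for Cyp4a14, so the size of the change is loosely fixed. In siLuc tumours they averaged 2.66 ± 2.23 and 2.29 ± 2.86 FPKM. Even the lowest library held 37 fragments of Cyp4a10 and 21 of Cyp4a14. No 50-base window of either transcript occurred in the other, but 25% of 50-base windows of Cyp4a10 also occur in Cyp4a32, a neighbouring family member.

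For ketone bodies the set holds Bdh1, the mitochondrial enzyme that interconverts acetoacetate and beta-hydroxybutyrate. Bdh1 had 22.3, 51.7, 60.5, 97.7 and 74.3 FPKM in siYap replicates 1 to 5, against 18.8, 37.5 and 59.96 in siLuc libraries. Replicates 3, 4 and 5 lay above the siLuc range and replicate 1 near its floor, and the log2 fold change of 0.71 ± 0.28 did not pass (adjusted p = 0.0639). In all, 6 of the 31 genes had an adjusted p between 0.05 and 0.1.

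The siYap libraries differed among themselves in the whole set. The median gene of the 31 differed from its siLuc mean, in log2(FPKM + 1), by -0.45 in siYap replicate 1, 0.51 in replicate 2, 0.47 in replicate 3, 0.87 in replicate 4 and 0.72 in replicate 5. The 8 siLuc libraries lay between -0.26 and 0.15 on that scale. In log2 CPM, the TMM-scaled counts with no length term, siYap replicate 1 stood at -0.28 and the siLuc libraries between -0.28 and 0.20. In FPKM, siYap replicate 1 was the lowest of the siYap libraries for 28 of the 31 genes (27 in log2 CPM). Also in FPKM, it lay below every siLuc library for 17 genes and above every one for 2. Some of the 17, Hadh and Acadvl among them, lay within the siLuc range in log2 CPM. Replicate 4 was above every siLuc library for 25 genes, replicate 5 for 23, replicate 3 for 14 and replicate 2 for 12. The share of all genes above or below every siLuc library was not computed for single siYap libraries. Pericentral hepatocyte markers, genes of the cells around the central vein, summed to 3824, 15631, 12706, 20016 and 13755 FPKM in siYap replicates 1 to 5, against 120 to 746 FPKM in siLuc libraries. Replicate 1 was also the shallowest library, with 23637021 fragments where the deepest had 37043914, and carried 1160 CPM of the ribosomal RNA gene Rn45s. Replicate 3 had 25801886 fragments and 1882 CPM of Rn45s, while the other 11 libraries lay between 479 and 812. The part of depth, ribosomal RNA or cell make-up in the position of replicate 1 was not tested. Without replicate 1, a setting chosen after its values were seen for this count, 9 of the 31 genes had all siYap libraries above all siLuc libraries, against 7.97% of all genes. The number called higher was 16 without it, with Bdh1, Crat, Decr1 and Slc25a20 gained, and 8 without replicate 4, with Acaa2, Acad11, Acadvl and Hadh lost.

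**Figure D4:**
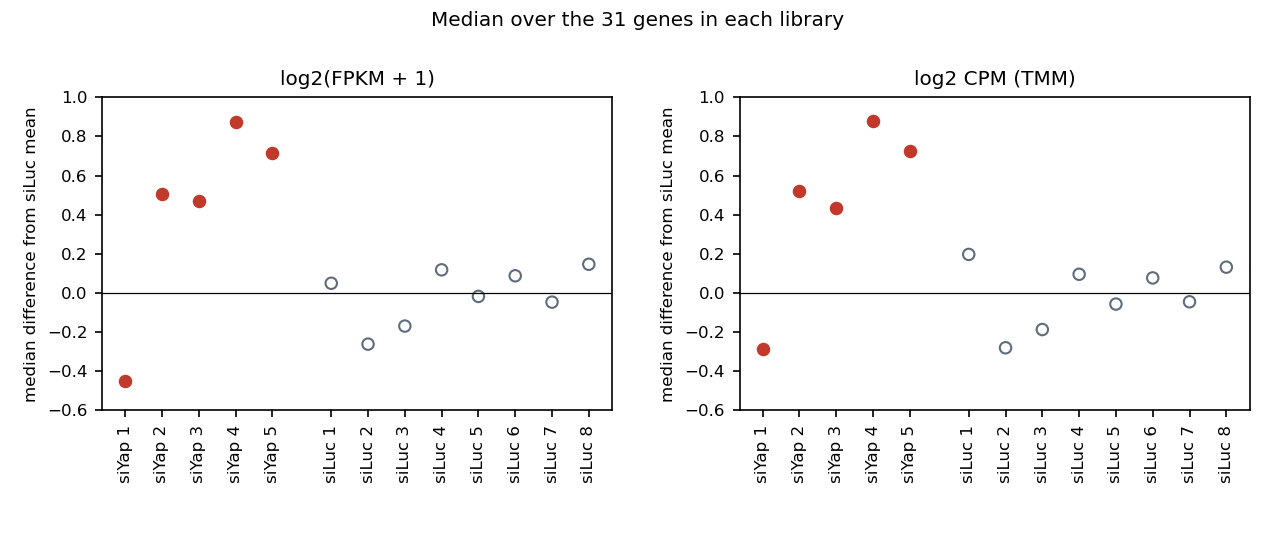
Median over the 31 genes of the difference from the siLuc mean in each library, in log2(FPKM + 1) and in log2 CPM, siYap beside siLuc. siYap replicate 1 is at -0.45 and -0.28, and the other siYap libraries lie above every siLuc library on both scales.

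The called genes were not equally stable. Acaa1a, Acadl, Acsl1, Cpt2, Cyp4a10, Cyp4a14 and Etfa passed under all 26 alternative settings of test, scaling, filter and libraries. Acaa2 lost its call in 18 of them, Acadvl in 16, Acad11 in 14, Hadh in 5 and Eci2 in 3. The names of the deposited tables carry a code digit of 6, 7 or 8 that may mark a run or cohort, a meaning the labels do not give. All 12 called genes had a positive siYap minus siLuc difference in log2 CPM within each of the 3 digits. The digits held 2 against 2, 2 against 5 and 1 against 1 libraries. The genes were called from these same libraries, so the shared sign adds no independent support. For Acadl those differences were 0.28, 1.14 and 0.97, for Etfa 0.66, 1.15 and 1.16, and for Acaa1a 0.78, 1.44 and 1.26. In digit 8 the siLuc library was replicate 8, with 28874 Y-linked and 393 Xist fragments. The siYap library there was replicate 5, with 7 Y-linked and 67126 Xist fragments. An effect of sex and one of the siRNA cannot be told apart in that digit. The table names also carry numbers that several libraries share, 3 in the siYap and 5 in the siLuc group. If each number were 1 animal, an exact permutation of the 8 numbers could give no p below 0.0179, which 6 of the 31 genes reached: Acadl, Acsl1, Acaa1a, Etfa and Cpt2, and also Fabp1, which did not pass the edgeR test (two-sided, unadjusted, on log2(FPKM + 1)). The share of all genes that reach 0.0179 was not computed, so 6 of 31 has no background beside it. Over numbers, p was 0.0357 for Cyp4a10 and Cyp4a14 and, among genes that did not pass, for Crot and Pex11a. It was 0.0536 for Hadh and between 0.0714 and 0.125 for Eci2, Acad11, Acadvl and Acaa2.

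Other genes of the same and adjoining routes, in lists written from general knowledge with earlier results of these data in view, are given with their counts and medians. Of 21 further activation and transport genes tested, 5 were higher and 3 lower, with a median log2 fold change of 0.20. Mlycd, which removes malonyl-CoA, the inhibitor of Cpt1a, averaged 24.9 ± 5.42 FPKM in siYap and 10.1 ± 1.87 FPKM in siLuc tumours (1.31, adjusted p = 3.19e-05). Acacb, which makes malonyl-CoA at the mitochondrial surface, was also higher, at 7.10 ± 5.52 FPKM in siYap and 0.924 ± 0.439 FPKM in siLuc tumours (2.94, adjusted p = 0.000318). Genes of opposite roles in malonyl-CoA turnover were thus both higher. The carnitine importer Slc22a5 averaged 15.4 ± 5.62 FPKM in siYap and 7.66 ± 1.61 FPKM in siLuc tumours (1.03, adjusted p = 0.00217), and Acsm5, a medium-chain acyl-CoA synthetase, was higher by 0.99 (adjusted p = 0.0104). Of 18 further mitochondrial oxidation genes, a list that also holds genes of amino acid breakdown, 5 were higher and 2 lower, with a median of 0.31. Hibadh and Ivd, of branched-chain amino acid breakdown, were higher by 0.84 (adjusted p = 0.000126) and 0.69 (adjusted p = 0.00822), and Gcdh, of lysine breakdown, by 0.95 (adjusted p = 0.00218). Acot9, an acyl-CoA thioesterase, was lower at 16.4 ± 3.50 FPKM in siYap against 33.2 ± 8.73 FPKM in siLuc tumours (-1.02, adjusted p = 0.00172).

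Of 25 further peroxisomal genes, 8 were higher and 1 lower, with a median of 0.37. Phyh, which starts the alpha-oxidation of phytanic acid, averaged 682 ± 176 FPKM in siYap and 302 ± 72.8 FPKM in siLuc tumours (1.17, adjusted p = 0.000525). Amacr, the racemase for branched chains, averaged 76.3 ± 33.8 FPKM in siYap and 24.2 ± 5.57 FPKM in siLuc tumours (1.66, adjusted p = 0.000226), and the thioesterase Acot12 was higher by 1.23 (adjusted p = 0.00141). The gene that was lower, Nudt19, a peroxisomal CoA hydrolase, averaged 14.1 ± 5.16 FPKM in siYap and 42.0 ± 10.04 FPKM in siLuc tumours (-1.58, adjusted p = 6.02e-05). Of 14 peroxins, which build the organelle, 4 were higher and 1 lower, with a median of 0.32. They included Pex10 (0.81, adjusted p = 0.00902), Pex5 (0.39, adjusted p = 0.0211) and Pex6 (0.39, adjusted p = 0.0429) among the higher ones and Pex2 (-0.40, adjusted p = 0.047) as the lower one.

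Of 10 ketone body genes beside Bdh1, 2 were higher and 3 lower, with a median of 0.09. Oxct1, which lets cells burn ketone bodies and is low in normal hepatocytes, averaged 11.01 ± 3.53 FPKM in siYap and 39.2 ± 16.2 FPKM in siLuc tumours (-1.81, adjusted p = 0.000971). Bdh2, a cytosolic relative of Bdh1, averaged 1.08 ± 0.694 FPKM in siYap and 14.9 ± 10.9 FPKM in siLuc tumours, with the siYap maximum of 2.14 below the siLuc minimum of 5.12 (-3.77, adjusted p = 0.000328). The monocarboxylate transporters moved in opposite directions. Slc16a7 was higher, at 153 ± 63.4 FPKM in siYap and 35.2 ± 20.6 FPKM in siLuc tumours (2.16, adjusted p = 0.00102), and Slc16a1 lower, at 29.6 ± 10.1 FPKM in siYap and 47.0 ± 6.87 FPKM in siLuc tumours (-0.66, adjusted p = 0.0248).

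Of 11 further omega-oxidation genes, 7 were higher and 2 lower, with a median log2 fold change of 0.90. Cyp4a32 averaged 11.5 ± 7.17 FPKM in siYap and 0.932 ± 0.452 FPKM in siLuc tumours (3.61, adjusted p = 3.96e-05), and shares windows with Cyp4a10 as given above. Aldh3a2, which oxidises fatty aldehydes, averaged 173 ± 71.6 FPKM in siYap and 42.8 ± 18.7 FPKM in siLuc tumours (2.02, adjusted p = 0.000455). Cyp4f15 was higher by 0.90 (adjusted p = 0.000649) and the alcohol dehydrogenase Adh7 by 1.69 (adjusted p = 0.00282).

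Among 20 PPAR regulators and partners, 8 were higher and 0 lower, with a median of 0.29. Ppara itself averaged 51.2 ± 20.2 FPKM in siYap and 33.0 ± 7.09 FPKM in siLuc tumours (0.65 ± 0.23, adjusted p = 0.0445). Rxra averaged 56.6 ± 12.6 FPKM in siYap and 29.1 ± 3.39 FPKM in siLuc tumours (0.99, adjusted p = 9.20e-05). Both a coactivator, Lpin1 (2.03, adjusted p = 0.00143), and a corepressor, Nrip1 (0.62, adjusted p = 0.00159), were higher. Of 24 further genes known as PPAR targets, 8 were higher and 1 lower, with a median of 0.26. Pdk4, the kinase that spares glucose carbon by blocking pyruvate dehydrogenase, averaged 18.2 ± 8.20 FPKM in siYap and 1.95 ± 1.23 FPKM in siLuc tumours (3.28, adjusted p = 8.07e-05). Slc25a42, the mitochondrial CoA carrier, was higher by 1.64 (adjusted p = 7.97e-05), and Tmem97 by 1.26 (adjusted p = 0.0031).

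Mitochondrial genes of the citric acid cycle, the respiratory chain and biogenesis were counted in lists of their own. Of 18 citric acid cycle genes, 5 were higher and 0 lower, with a median of 0.02. Idh3a averaged 25.9 ± 8.33 FPKM in siYap and 6.93 ± 1.32 FPKM in siLuc tumours (1.91, adjusted p = 2.95e-05), and Mdh2 was higher by 1.14 (adjusted p = 0.000148), Cs by 1.14 (adjusted p = 0.000755) and Sdha by 0.97 (adjusted p = 0.000211). Of 23 respiratory chain genes, 1 was higher, Cox4i1 (0.45, adjusted p = 0.0397), and 1 lower, Cox6c (-0.62, adjusted p = 0.0305), and the median log2 fold change was -0.17. Cox5a (0.34, adjusted p = 0.0699) and Cox5b (-0.35, adjusted p = 0.16) did not pass. Of 19 mitochondrial biogenesis and membrane genes, 2 were higher, the fusion genes Mfn2 (1.17, adjusted p = 0.000204) and Mfn1 (0.58, adjusted p = 0.00467), and 4 lower, among them Vdac2 (-0.61, adjusted p = 0.00787) and Tfb1m (-0.75, adjusted p = 0.00702), with a median of -0.09. No difference between lists was tested.

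**Figure D5:**
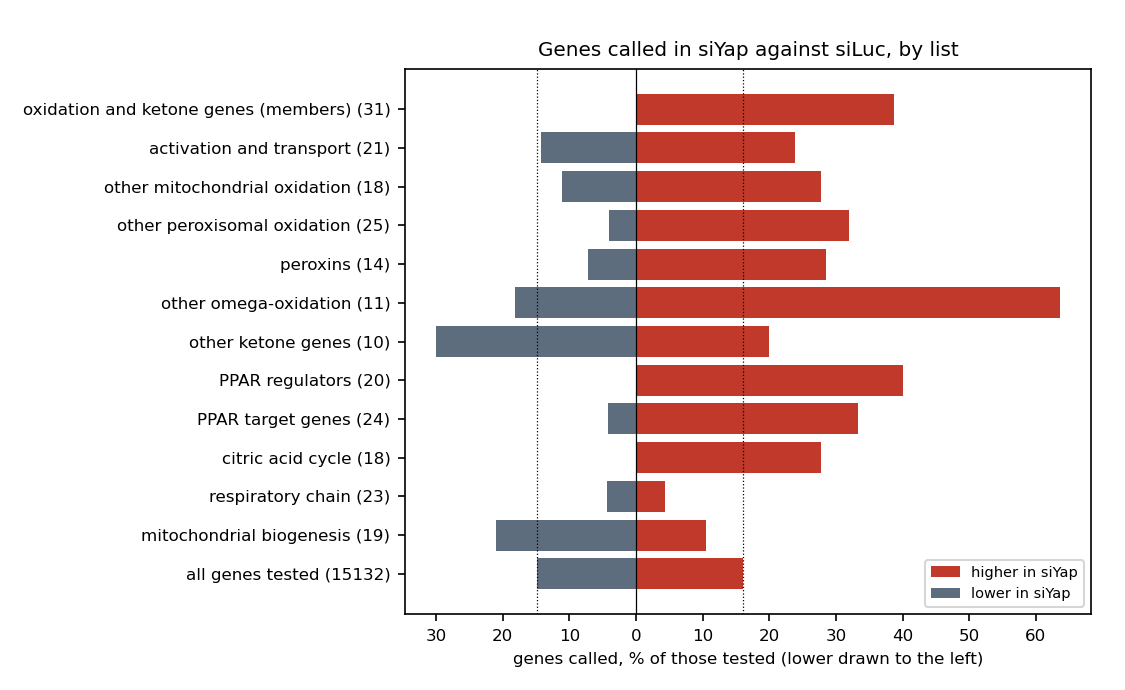
Percent of tested genes called higher (to the right) and lower (to the left) in siYap tumours for the 31 genes, the related lists and all genes tested, with the number of genes tested in parentheses. The bars for all genes, repeated as dotted lines, stand at 16% higher and 14.8% lower.

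As a check of the labels, Yap1 averaged 3.29 ± 0.845 FPKM in siYap and 9.999 ± 1.37 FPKM in siLuc tumours (-1.58 ± 0.17, adjusted p = 2.36e-05), with the siYap maximum of 4.17 below the siLuc minimum of 8.10. The Mst1 gene Stk4 was at or under 0.0533 FPKM on average in both groups. Stk3, the Mst2 gene, averaged 5.22 ± 1.32 FPKM in siYap and 6.12 ± 0.619 FPKM in siLuc tumours. This level is of the whole gene, with exons not counted apart, so it does not show how far Mst2 was deleted. Hepatocyte markers summed to 16398 to 27218 FPKM in siYap and 20925 to 32237 FPKM in siLuc libraries, with 3 of 16 higher and 4 lower. All 10 pericentral markers were higher and 7 of 10 periportal markers lower. Cholangiocyte markers summed to 170 to 1151 FPKM in siYap and 1953 to 5098 FPKM in siLuc libraries, and macrophage markers to 140 to 277 FPKM in siYap and 263 to 460.5 FPKM in siLuc libraries. Neutrophil markers summed to 166 to 1272 FPKM in siYap and 35 to 206 FPKM in siLuc libraries, and stellate markers to 169 to 660 FPKM in siYap and 59.7 to 293 FPKM in siLuc libraries, with replicate 1 the highest siYap library in both. No adipocyte marker passed the filter, and the adipocyte marker Plin1 was at 0 in every library. The part of these shifts in the results for the 31 genes was not tested. Of the siLuc libraries, replicate 8 carried 28874 fragments on 4 Y-linked genes, where no other library had more than 11. It carried 393 fragments of the X-linked Xist, where every other library had at least 39760. The groups may thus differ in sex make-up, and the part of sex in the results was not tested. Without that library, Crat and Ehhadh gained a call and Acaa2 lost one.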

How the data were processed

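RNA from liver tumours was sequenced as 13 libraries, 5 siYap and 8 siLuc, each with its own deposited table of 23361 gene symbols. Library preparation used the ScriptSeq Complete Gold Kit and sequencing a HiSeq2500, per the labels' protocols. The submitters' processing notes name Trimmomatic 0.30, TopHat2 2.0.8, Cufflinks, Cuffdiff 2.1.1 and the build mm10. Whether counting used strand is not given in the sources used here. The deposited raw fragments are the authors' estimated counts per gene, whole for 97.6% to 98.0% of values (tolerance 1e-06), and total 23637021 to 37043914 per library. The deposited FPKM are the authors' values per transcript length and library depth. Errors are of the spread between libraries.

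Estimated counts were rounded and tested with edgeR 4.0.16 (R 4.3.3; TMM, filterByExpr, robust quasi-likelihood F test, Benjamini-Hochberg over 15132 genes, threshold 0.05). Left out were 3 genes that the authors' software marked as too deep to estimate. Standard errors are the log2 fold change divided by the square root of F. Alternatives used limma 3.58.1 on log2(FPKM + 1) or log2(FPKM + 0.1), DESeq2 1.42.0, other scalings and filters, the code digit, the table numbers, and each library left out. The fit was tested on simulated data. Exact tests are two-sided permutations over table numbers.

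The 31 genes and all lists were chosen with earlier results of these data known. Named beside them are, of each list, up to 4 genes with the smallest p and a mean of at least 1 FPKM, and Ppara. One gene that this rule names is not reported here. Coordinates are of mm10.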

Additional observations from a re-analysis of the deposited data

Results flagged for a closer look

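In 10 of 62 groups (31 genes in siYap and in siLuc libraries) the highest or lowest library stood apart from the rest by Dixon's criterion. Chance meets it in about 1 of 20 groups of normally spread values. The values here are FPKM without a log, and all genes share the same libraries. The 10 of 62 can therefore not be read against that share. In the siYap group, Etfa was lowest in replicate 1, at 113 FPKM with the next value at 212, and Pex11a was highest in replicate 5, at 36.7 FPKM with the next at 16.6. In the siLuc group, replicate 8, the library with Y-linked fragments, was highest for Cpt1a at 91.2 FPKM, Slc25a20 at 65.7, Crat at 12.2 and Etfdh at 127, where the next values were 72.2, 46.5, 8.59 and 98.7 FPKM. Replicate 1 of that group was highest for Cpt2 at 18.8 FPKM and Crot at 704, where the next values were 13.3 and 389.9 FPKM. Replicate 4 of that group was highest for Cyp4a10 at 7.33 FPKM and Cyp4a14 at 8.82, where the next values were 3.64 and 3.52 FPKM, and was also the siLuc library with the highest sum of pericentral markers, 746 FPKM.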

How the results depend on the processing

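Of 806 comparisons (31 genes under 26 alternatives), 683 kept direction and side of the threshold, 56 lost a call, 35 gained one and 32 turned sign. The count of genes called higher (12) was 7 with limma on unfiltered log2(FPKM + 1) and at an adjusted p under 0.01, 4 with an absolute log2 fold change of at least 1, and 8 to 16 with a library left out. The count lower (0) was 1, Crot, with DESeq2, both filtered limma fits, the code digit as a term and limma-voom, and 0 to 1 with a library left out. Mitochondrial genes higher (6) numbered 3 with every limma FPKM fit, the replicate block or the stricter p, 0 at the fold limit and 3 to 9 with a library left out. Peroxisomal genes higher (3) numbered 1 with unfiltered limma, the stricter p or the fold limit. Activation genes higher (1) numbered 2 with DESeq2, filtered limma, counts summed per table number and limma-voom, and 1 to 2 with a library left out. The ketone gene passed (1 against 0) with DESeq2, the code digit, summed counts and siYap replicates 1 and 3 both left out, and in 0 to 1 with a library left out. Genes separated in FPKM (1) numbered 1 to 9 with a library left out. They numbered 2 or 3 without siLuc replicate 1, 2 or 4 or siYap replicate 2, and 9 without siYap replicate 1. Of all genes, 4668 were called, against 2325 with the replicate block, 2984 without siYap replicates 1 and 3, 2362 at the stricter p, 1992 at the fold limit and 3325 to 4633 with a library left out. The groups share replicate numbers, and deviations of same-numbered libraries correlated at -0.12 to 0.13. No differently numbered libraries were set beside them, so this can neither show nor exclude a pairing by number. Under the replicate block 9 of the 31 genes were called, without Acaa2, Acadvl and Hadh.

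Signs turned for genes near zero. Acsl5 was 0.053 with the code digit, 0.090 with summed counts, 0.19 without siYap replicates 1 and 3, and -0.18 to 0.065 with a library left out. Acads was -0.0046 with limma at a pseudocount of 1, with or without the filter, -0.0065 at 0.1, and -0.061 to 0.17 with a library left out. Hadhb was -0.041 with limma at a pseudocount of 1, with or without the filter, -0.043 at 0.1, -0.018 with the code digit, -0.028 with limma-voom and -0.12 to 0.21 with a library left out. Etfb was -0.020 with limma at a pseudocount of 1, with or without the filter, -0.021 at 0.1, -0.022 with summed counts, -0.076 with the replicate block, and -0.051 to 0.12 with a library left out. With a library left out Hadha ranged from -0.0024 to 0.23 and Eci1 from -0.012 to 0.31. The cause of these shifts was not tested.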
